A study of Mus musculus with 6 samples.

Results

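The p53 and DNA damage target genes described here are 10 genes chosen by symbol: Trp53, which encodes the transcription factor p53, and 9 of its well-known targets, Mdm2, Cdkn1a, Ccng1, Gadd45a, Bax, Bbc3, Phlda3, Trp53inp1 and Sesn2. All 10 were among the 52459 genes of the deposited count table, and all 10 were among the 17032 genes with enough counts to be tested. RNA-Seq had been performed on whole livers of 6 male C57BL6J mice of the Alb-Cre/Cas9 F1 generation at 8 months after birth. At 4 to 5 weeks of age the mice had received an AAV8 vector that expresses a guide RNA from the U6 promoter, either a control guide (sgCtrl, mice 5.1, 7.1 and 7.2) or a guide against Prdx2 (sgPrdx2, mice 1.1, 1.3 and 3.2), which encodes the peroxide-reducing enzyme peroxiredoxin 2. Both groups were then given 100 mg/kg of diethylnitrosamine (DEN), a liver carcinogen that alkylates DNA after its activation by hepatocytes, 3 weeks after the vector, and 1 week later a choline-deficient high-fat diet (CDA-HFD) that was kept for 6 months. The control livers therefore carried the same Cre and Cas9 alleles, the same carcinogen and the same diet, and livers without DEN were not analysed here. The study describes the mouse control guide as targeting GFP, and the Cas9 allele of the mice also carries EGFP.

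Alb-Cre switches on Cas9 in hepatocytes, whereas the RNA came from whole liver with all of its cell types. In such bulk RNA, fewer cells of a type and less RNA per cell cannot be told apart. The gene targeted by the guide, Prdx2, was at 109, 117 and 132 CPM (counts scaled to the normalized library size) in sgCtrl livers 5.1, 7.1 and 7.2 and at 99.0, 112 and 149 CPM in sgPrdx2 livers 1.1, 1.3 and 3.2 (log2 fold change 0.01, SE 0.18, adjusted p = 0.983, edgeR). Its RNA level therefore did not check the labels. An edited gene can still be transcribed, and the RNA also came from cells other than hepatocytes. By immunohistochemistry, the study reports PRDX2 protein as suppressed in hepatocytes of the knockout livers. It describes the PRDX2-positive islets that remained as most likely nontransduced. The part of such islets, of other cells and of RNA from the edited gene in the Prdx2 level was not tested. Libraries held 37462102 to 56865293 counts, and 3 counts, taken as the limit of detection, stood for 0.0555 to 0.0921 CPM, counting error only. One library stood apart: in sgPrdx2 liver 3.2, short genes (at most 1887 exon bases) exceeded long genes (at least 6984.6) by 0.71 on the log2 scale relative to the mean of the livers, against values from -0.32 to -0.02 in the other 5.

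p53 is kept at a low level by the ubiquitin ligase Mdm2 and accumulates when kinases activated by DNA damage modify it. It then binds pairs of a short palindromic decamer near its target genes and raises their transcription, including that of Mdm2, which closes a negative feedback loop. The other targets halt the cell cycle (Cdkn1a, Ccng1, Gadd45a), promote cell death (Bax, Bbc3), restrain AKT (Phlda3) or adjust stress metabolism and autophagy (Sesn2, Trp53inp1). In liver, p53 and p21, the product of Cdkn1a, are known for restraining hepatocyte proliferation after injury.

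The window around the upstream start site of Cdkn1a is shown in full. It was chosen after the values were seen, because Cdkn1a was the member called and the window holds a 20-base p53 element. Whether this element has a part in the level of Cdkn1a was not tested. The sequence is that of RefSeq (GRCm38.p6), chr17:29090729-29091028 on the plus strand, with 250 bases before and 50 after the start site. The capitals mark the 20-base element, which lies 51 to 32 bases before that start site and differs from the consensus at 1 base.
Cdkn1a: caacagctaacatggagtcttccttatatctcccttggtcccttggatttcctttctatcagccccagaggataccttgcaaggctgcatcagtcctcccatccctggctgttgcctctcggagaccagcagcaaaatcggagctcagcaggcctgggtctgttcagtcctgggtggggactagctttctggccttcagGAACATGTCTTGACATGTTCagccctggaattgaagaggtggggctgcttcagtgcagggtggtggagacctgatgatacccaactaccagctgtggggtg
A full element with at most 1 base off the consensus was present in 18 of 32851 promoter windows of the same length (0.0548%), and Cdkn1a held the only one among the members. The window of the other Cdkn1a start site, 2790 bases downstream, held no decamer. Decamers that match the consensus on either strand were present in 6 of the 12 windows of the 9 members in the promoter table (50%), 1 window in each of 6 members, against 2745 of all 32851 windows (8.36%). Besides Cdkn1a these were Trp53 (chr11:69580284-69580293, plus strand), Mdm2 (chr10:117710935-117710944, minus strand), Ccng1 (chr11:40755462-40755471, minus strand), Gadd45a (chr6:67037438-67037447, minus strand) and Bax (chr7:45467090-45467099, minus strand). They are shown with 10 bases on either side and the decamer in capitals.
Trp53: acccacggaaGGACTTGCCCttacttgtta
Mdm2: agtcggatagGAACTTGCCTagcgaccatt
Ccng1: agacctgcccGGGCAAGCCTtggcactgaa
Gadd45a: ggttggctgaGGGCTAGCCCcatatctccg
Bax: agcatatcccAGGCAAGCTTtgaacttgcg
The windows of Bbc3, Phlda3 and Sesn2 held no such decamer, and known p53 elements can lie outside these windows, as for Mdm2, whose elements are in its first intron. No binding of p53 was measured, so these matches describe sequence only.

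Cdkn1a was the member that changed: its RNA fell by 1.08 on the log2 scale in sgPrdx2 livers, to 0.474 of the sgCtrl level. The gene, chr17:29090976-29100727 on the plus strand of GRCm38, encodes p21, an inhibitor of cyclin-dependent kinases that arrests cells in G1. It had 1338, 1866 and 2033 counts in the livers of sgCtrl mice 5.1, 7.1 and 7.2, which corresponds to 30.6, 41.5 and 38.7 CPM after TMM normalization. In sgPrdx2 livers 1.1, 1.3 and 3.2 it had 798, 1076 and 469 counts, or 18.2, 19.9 and 14.4 CPM. All 3 sgPrdx2 livers were below all 3 sgCtrl livers, and the highest sgPrdx2 liver was well under the lowest sgCtrl liver. The means were 36.9 ± 5.68 and 17.5 ± 2.81 CPM (SD, n = 3 each), with a log2 fold change of -1.08 (SE 0.17, 95% interval -1.47 to -0.68) and an adjusted p of 0.0358 (edgeR's quasi-likelihood test, adjusted over all genes by the Benjamini-Hochberg method). It was 1 of 10 members called at an adjusted p under 0.05, when 3.33% of all genes tested were called and 1.54% were called lower. It was also the 1 member called by DESeq2, which called 13.4% of genes and 5.78% lower, and at an adjusted p under 0.1 in edgeR, which 10.4% of genes reached. Cdkn1a ranked 111 of 17032 by p, and 1.8% of genes had a lower log2 fold change. The exact permutation test of its log2 CPM gave p = 0.1, the smallest that 3 livers against 3 allow.

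**Figure D1:**
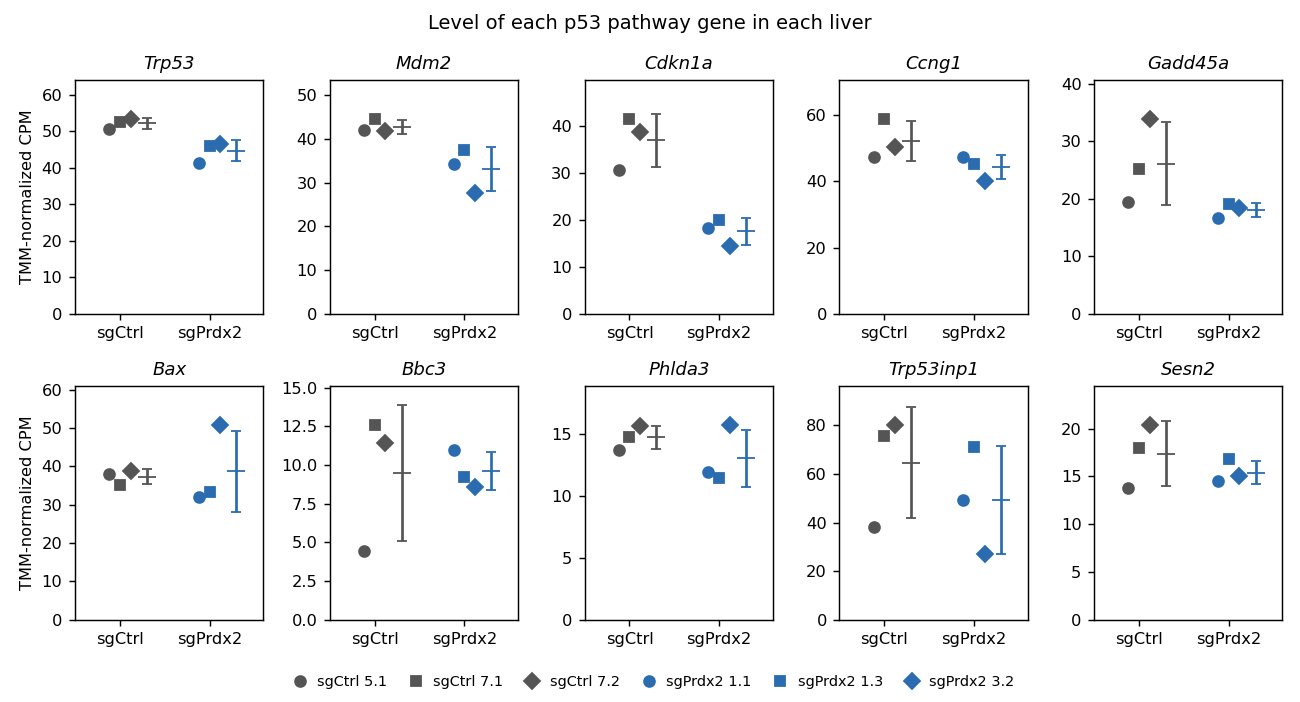
TMM-normalized CPM (y axes, each from 0) of the 10 genes in the 3 sgCtrl (grey) and 3 sgPrdx2 (blue) livers; each symbol is 1 liver and the bars give mean ± SD. Cdkn1a separates the groups most widely (30.6 to 41.5 against 14.4 to 19.9 CPM), while Bbc3 and Trp53inp1 spread within the groups.

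The call on Cdkn1a was lost without any of 5 of the 6 livers. Without any 1 liver its log2 fold change stayed between -1.19 and -0.94, but the adjusted p (edgeR) was under 0.05 only without sgPrdx2 liver 3.2 (0.0377) and was 0.0524 to 0.144 without each of the others. Without sgCtrl livers 5.1 and 7.2 or sgPrdx2 livers 1.1 and 1.3, each left out in turn, no gene at all passed the threshold. With all 6 livers, every other normalization, filter and tool tried left Cdkn1a past the threshold, with adjusted p from 1.47e-05 (DESeq2) to 0.0378 (edgeR with robust dispersion). Of its exon bases, 7.68% overlap the opposite-strand gene AC167363.2, and whether reads were counted by strand is not given in the sources used here.

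**Figure D2:**
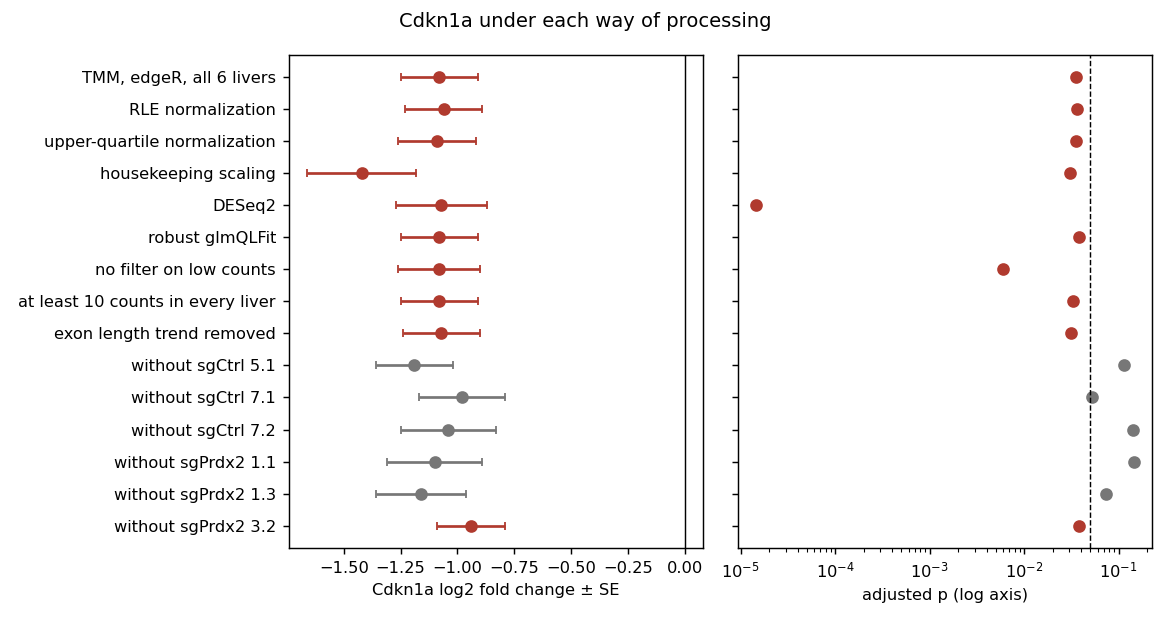
Cdkn1a log2 fold change ± SE (left) and adjusted p on a log axis (right) for each normalization, filter and tool and without each liver; red marks adjusted p under 0.05 (dashed line). The fold change lies between -1.42 and -0.94 throughout, and the grey points are the 5 fits without a liver in which the threshold was missed.

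Trp53 itself and its feedback inhibitor Mdm2 were lower in every sgPrdx2 than in every sgCtrl liver, but neither passed the test over all genes. Trp53 (chr11:69580359-69591873, plus strand) was at 50.7, 52.5 and 53.5 CPM in the sgCtrl livers and at 41.4, 46.1 and 46.6 CPM in the sgPrdx2 livers. These are narrow groups with a small gap between them, 52.2 ± 1.42 and 44.7 ± 2.87 CPM (SD, n = 3 each). Its log2 fold change was -0.22 (SE 0.11, 95% interval -0.49 to 0.04, adjusted p = 0.261 in edgeR's quasi-likelihood test). Mdm2 (chr10:117688875-117710758, minus strand), the ubiquitin ligase that marks p53 for degradation, was at 42.0, 44.6 and 41.7 CPM in sgCtrl and at 34.2, 37.5 and 27.6 CPM in sgPrdx2 livers. The lowest value was that of sgPrdx2 liver 3.2. The log2 fold change of Mdm2 was -0.37 (SE 0.14, 95% interval -0.69 to -0.05), with an unadjusted p of 0.0292 and an adjusted p of 0.157 in edgeR, and it was -0.24 without liver 3.2.

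The other targets that act on the cell cycle were Gadd45a and Ccng1. Gadd45a (chr6:67035096-67037457, minus strand), whose product takes part in growth arrest and DNA repair, was at 19.5, 25.1 and 33.9 CPM in sgCtrl and at 16.6, 19 and 18.4 CPM in sgPrdx2 livers. The sgPrdx2 livers were close together and below the sgCtrl livers, of which liver 5.1 lay just above them and liver 7.2 far above. Gadd45a had a log2 fold change of -0.54 (SE 0.20, 95% interval -1 to -0.08, unadjusted p = 0.0272, adjusted p = 0.153 in edgeR), and of -0.31 without sgCtrl liver 7.2. Of its exon bases 19.1% overlap the opposite-strand gene E230016M11Rik. Ccng1 (chr11:40748552-40755311, minus strand), which encodes cyclin G1, a recruiter of phosphatase to Mdm2, was at 47.3, 59.0 and 50.3 CPM in sgCtrl and at 47.3, 45.2 and 40.2 CPM in sgPrdx2 livers. Its groups met at the value of sgCtrl liver 5.1 and sgPrdx2 liver 1.1, and the log2 fold change was -0.24 (SE 0.13, 95% interval -0.55 to 0.07, adjusted p = 0.311 in edgeR).

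The apoptosis genes Bax and Bbc3 had log2 fold changes near 0, with intervals wide enough to hold changes in either direction. Bax (chr7:45461697-45466898, minus strand), whose product permeabilizes the outer mitochondrial membrane, was at 37.9, 35.2 and 38.8 CPM in sgCtrl livers and at 32.1, 33.3 and 50.8 CPM in sgPrdx2 livers. sgPrdx2 livers 1.1 and 1.3 were below every sgCtrl liver and sgPrdx2 liver 3.2 was above them all. The log2 fold change of Bax was 0.05 (SE 0.19, 95% interval -0.38 to 0.48, adjusted p = 0.875 in edgeR), and its sign turned without liver 3.2 (-0.18), with the trend on exon length removed from each library (-0.11) and with scaling to 6 housekeeping genes (-0.35). It was 0.17 without sgPrdx2 liver 1.1 and 0.17 without sgPrdx2 liver 1.3. Bax has a short transcript (1576 exon bases), and liver 3.2 is the library with high levels of short genes. A part of exon length in the Bax level of that liver was not tested. Of the exon bases of Bax, 12.2% overlap Gm45808 on the same strand, which had 0 counts in every liver.

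Bbc3 (chr7:16308393-16318205, plus strand) encodes PUMA, a BH3-only protein that activates Bax. It was at 4.45, 12.6 and 11.4 CPM in sgCtrl and at 11, 9.23 and 8.60 CPM in sgPrdx2 livers. The sgPrdx2 values lay between the low sgCtrl liver 5.1 and the other sgCtrl livers. The log2 fold change of 0.02 (SE 0.35, 95% interval -0.79 to 0.82, adjusted p = 0.983 in edgeR) depended on the livers included. Without sgCtrl liver 5.1 the value was -0.32 (adjusted p = 0.375 in edgeR), without sgCtrl liver 7.1 it was 0.27 and without sgCtrl liver 7.2 0.17. It was also below 0 without sgPrdx2 liver 1.1 (-0.09), with the length trend removed (-0.08) and with the housekeeping scaling (-0.33).

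The remaining 3 targets overlapped between the groups. Phlda3 (chr1:135766119-135769136, plus strand), which encodes a repressor of AKT, was at 13.7, 14.7 and 15.6 CPM in sgCtrl and at 11.9, 11.4 and 15.7 CPM in sgPrdx2 livers (log2 fold change -0.17, SE 0.16, adjusted p = 0.520, edgeR). As for Bax, sgPrdx2 livers 1.1 and 1.3 were below every sgCtrl liver and liver 3.2 was the highest of all. The log2 fold change of Phlda3 was -0.32 without sgPrdx2 liver 3.2, -0.07 without sgPrdx2 liver 1.3 and -0.33 (SE 0.11, adjusted p = 0.123, edgeR) with the length trend removed. Sesn2 (chr4:132492032-132510501, minus strand), whose product restrains mTORC1, was at 13.8, 18.0 and 20.4 CPM in sgCtrl and at 14.5, 16.8 and 15.1 CPM in sgPrdx2 livers (log2 fold change -0.17, SE 0.17, adjusted p = 0.549, edgeR). Here the sgPrdx2 livers fell within the range of the sgCtrl livers, and the log2 fold change was -0.04 without sgCtrl liver 7.2 and -0.32 without sgCtrl liver 5.1. Trp53inp1 (chr4:11156431-11174379, plus strand), a p53 cofactor that also acts in autophagy, was at 38.3, 75.6 and 80.2 CPM in sgCtrl and at 49.4, 71.3 and 27.2 CPM in sgPrdx2 livers. With sgCtrl liver 5.1 and sgPrdx2 liver 3.2 low within their groups, its log2 fold change was -0.39 (SE 0.38, 95% interval -1.27 to 0.48, adjusted p = 0.548, edgeR). That value was -0.09 without sgPrdx2 liver 3.2, -0.21 without sgCtrl liver 7.2, -0.66 without sgCtrl liver 5.1 and -0.74 without sgPrdx2 liver 1.3.

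**Figure D3:**
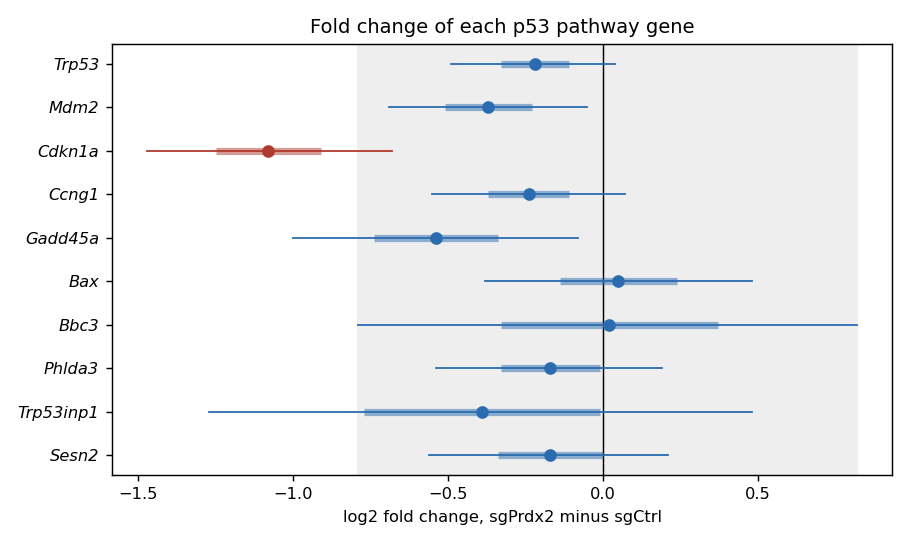
Log2 fold change (sgPrdx2 minus sgCtrl) of each of the 10 genes; points are estimates, thick bars SE and thin lines 95% intervals, and red marks an adjusted p under 0.05. The grey band holds the log2 fold changes of all genes tested from the 5th to the 95th percentile (-0.79 to 0.82), and only Cdkn1a (-1.08) has its point outside it.

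Across the 10 genes, 8 log2 fold changes were below 0, against 51.7% of all genes, and their median was -0.23, against -0.02 for all genes. Cdkn1a, Gadd45a, Mdm2 and Trp53 were the 4 members whose groups did not overlap, and all 4 were lower in sgPrdx2 livers. Among all genes tested, 34.2% did not overlap between the groups, and 17.5% were lower in sgPrdx2 livers without overlap. An unadjusted p under 0.05 was reached by 3 members, Cdkn1a, Gadd45a and Mdm2, against 24.9% of all genes, or 11.9% when lower ones alone are counted.

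Scaling mattered to the direction of the small differences. The 6 housekeeping genes of the study's gene panel, used as the reference in place of TMM, moved the median of all genes to -0.38 and that of the members to -0.60, with all 10 members below 0. Under TMM these reference genes were themselves at a median log2 fold change of 0.43, 5 of 6 above 0 and 4 higher in sgPrdx2 livers without overlap, with 0 called by edgeR, 3 at an unadjusted p under 0.05 and 3 called by DESeq2. Gadd45a passed the threshold under that scaling (log2 fold change -0.90, adjusted p = 0.0490, edgeR). Relative to the median of all genes, Cdkn1a was at -1.06 on the log2 scale with TMM and at -1.04 with the housekeeping scaling.

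Ratios within a liver do not depend on the scaling between livers. The log2 ratio of Cdkn1a to Trp53 was -0.73, -0.34 and -0.47 in sgCtrl and -1.19, -1.21 and -1.69 in sgPrdx2 livers, so that p21 RNA was lower relative to the RNA of its activator in each sgPrdx2 liver (difference -0.85). The log2 ratio of Cdkn1a to Mdm2 was -0.46, -0.11 and -0.11 in sgCtrl and -0.91, -0.92 and -0.94 in sgPrdx2 livers, an SD of 0.01 over 3 sgPrdx2 livers in which both genes were lowest in liver 3.2. Of the 9 ratios of Cdkn1a to another member, 8 were lower in sgPrdx2 livers without overlap, and the exception was Trp53inp1 (two-sided exact permutation test, p = 0.1 for each of the 8 and 0.2 for Trp53inp1, Benjamini-Hochberg adjusted 0.112 and 0.2). These ratios share Cdkn1a, and 79.3% of all other genes gave the same pattern with Cdkn1a (79.4% without overlap in either direction), so the count describes Cdkn1a rather than its partners. Of the 9 ratios of a target to Trp53, that of Cdkn1a was the only one without overlap (5.59% of all genes were lower relative to Trp53 without overlap, and 37.1% did not overlap in either direction), with an exact permutation p of 0.1 and an adjusted p of 0.9. The ratio of Mdm2 to Trp53, for example, was -0.27, -0.23 and -0.36 in sgCtrl and -0.28, -0.30 and -0.76 in sgPrdx2 livers, and these overlapped.

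**Figure D4:**
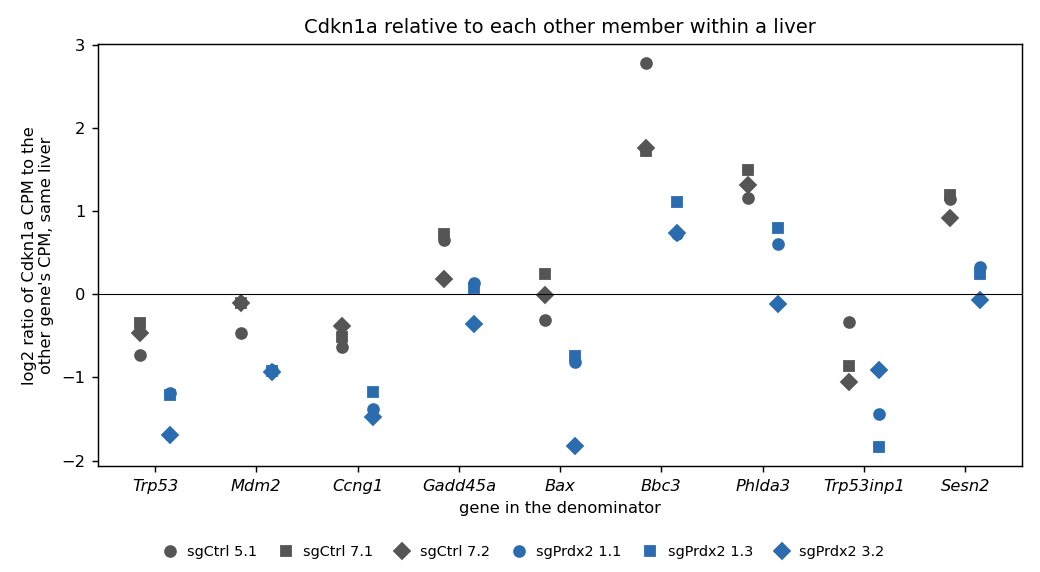
Log2 ratio of Cdkn1a CPM to the CPM of each other member (x axis) in the same liver, with 1 symbol per liver, sgCtrl in grey and sgPrdx2 in blue. The sgPrdx2 livers lie below the sgCtrl livers for 8 of 9 partners, Trp53inp1 being the exception, and Mdm2 has the tightest sgPrdx2 group (-0.94 to -0.91).

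The members also differed in how much they varied among livers of one group. Trp53 was the steadiest, with a coefficient of variation of 4.57% averaged over the groups, and 5.85% of the 6660 genes of like level varied less (median over these genes 12.6%). Trp53inp1 (40.1%) and Bbc3 (29.7%) were the most variable, and 98.5% and 95.4% of genes of like level varied less. Cdkn1a, at 15.7%, was in the middle. Over all 6 livers of both groups, the ranges from the lowest to the highest liver were 2.88-fold for Cdkn1a, 2.95-fold for Trp53inp1 and 2.84-fold for Bbc3. That of Cdkn1a ran from sgPrdx2 liver 3.2 to sgCtrl liver 7.1 and so holds the difference between the groups. For Bbc3 the lowest and the highest liver were both sgCtrl livers (5.1 and 7.1), whereas for Trp53inp1 they were sgPrdx2 liver 3.2 and sgCtrl liver 7.2. sgCtrl liver 5.1 was the lowest of the sgCtrl livers for Cdkn1a, Gadd45a, Bbc3, Trp53inp1, Sesn2, Phlda3, Trp53 and Ccng1, the exceptions being Bax and Mdm2.

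Per kilobase of exon, Bax was the most abundant member and Bbc3 and Sesn2 the least. In sgCtrl livers the levels were 23.7 ± 1.2 CPM per kb for Bax, 14.9 ± 1.74 for Ccng1, 14.8 ± 4.11 for Gadd45a and 12.9 ± 0.352 for Trp53 (SD, n = 3). Below them were Cdkn1a at 10.4 ± 1.6, Trp53inp1 at 9.99 ± 3.55, Phlda3 at 9.41 ± 0.602 and Mdm2 at 8.42 ± 0.316, and the last were Sesn2 at 5.00 ± 0.967 and Bbc3 at 4.47 ± 2.08 CPM per kb. Neighbours in this order did not all hold it in each liver: Bax was above Ccng1 and Trp53 above Cdkn1a in 6 of 6 livers, but Gadd45a was above Trp53 in only 2 of 6. Cdkn1a went from place 5 in sgCtrl livers to place 8 in sgPrdx2 livers (4.92 ± 0.791 CPM per kb), behind Mdm2 at 6.51 ± 0.997. Exon lengths are those of the GENCODE annotation, which may differ from the one behind the counts.

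Other p53 target genes did not share one direction. Of 31 further targets, all tested, 1 rose, 1 fell and 29 did not pass, with 15 log2 fold changes below 0 and a median of 0.06. Among all genes tested, 1.79% were called higher, 1.54% were called lower and 51.7% had log2 fold changes below 0. The one that fell was Aen, a p53-induced exonuclease of apoptosis, at 17.7, 18.6 and 16.9 CPM in sgCtrl and 12.4, 12.3 and 10.4 CPM in sgPrdx2 livers (log2 fold change -0.60, SE 0.13, adjusted p = 0.0494, edgeR). The one that rose was Dcxr, which encodes the carbonyl-reducing enzyme dicarbonyl and L-xylulose reductase, at 29.7, 45.7 and 40.7 CPM in sgCtrl and 101, 80.0 and 129 CPM in sgPrdx2 livers (log2 fold change 1.42, SE 0.23, adjusted p = 0.0358, edgeR). The groups overlapped for neither gene, and they did not overlap for 34.2% of all genes tested. Of the 31 targets, 5 were higher and 7 lower in sgPrdx2 livers without overlap.

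By role, the further targets of cell cycle arrest had a median log2 fold change of -0.24 (6 genes, 4 lower), those of apoptosis -0.60 (9 genes, 5 lower), those of DNA repair -0.13 (4 genes, 3 lower), those of metabolism and redox control 0.35 (8 genes, 6 higher) and those of feedback 0.07 (4 genes, 3 higher). The smallest p among those that did not pass were those of Plk2, a kinase of the cell cycle (-0.55, adjusted p = 0.0612), Fdxr, a mitochondrial ferredoxin reductase (0.76, adjusted p = 0.0635), and Apaf1, the scaffold of the apoptosome (-0.69, adjusted p = 0.0991, edgeR for each). Among the 22 further targets with a promoter window, 8 held a p53 decamer, and Gtse1 was the only one with a full element with at most 1 base off; its log2 fold change was -0.29 (adjusted p = 0.392, edgeR). Like Bbc3, the targets Btg2, Gls2 and Gdf15, chosen after their values were seen, were lowest in sgCtrl liver 5.1 among all 6 livers (24.5, 44.1 and 14.3 CPM). So were Plk3, Fas, Perp, Ei24, Fdxr, Dcxr and Slc19a2, whereas Ddb2, Sesn1, Tigar and Rrm2b were highest in that liver. The further targets thus had no common direction in liver 5.1, and the share of all genes lowest in it was not counted.

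**Figure D5:**
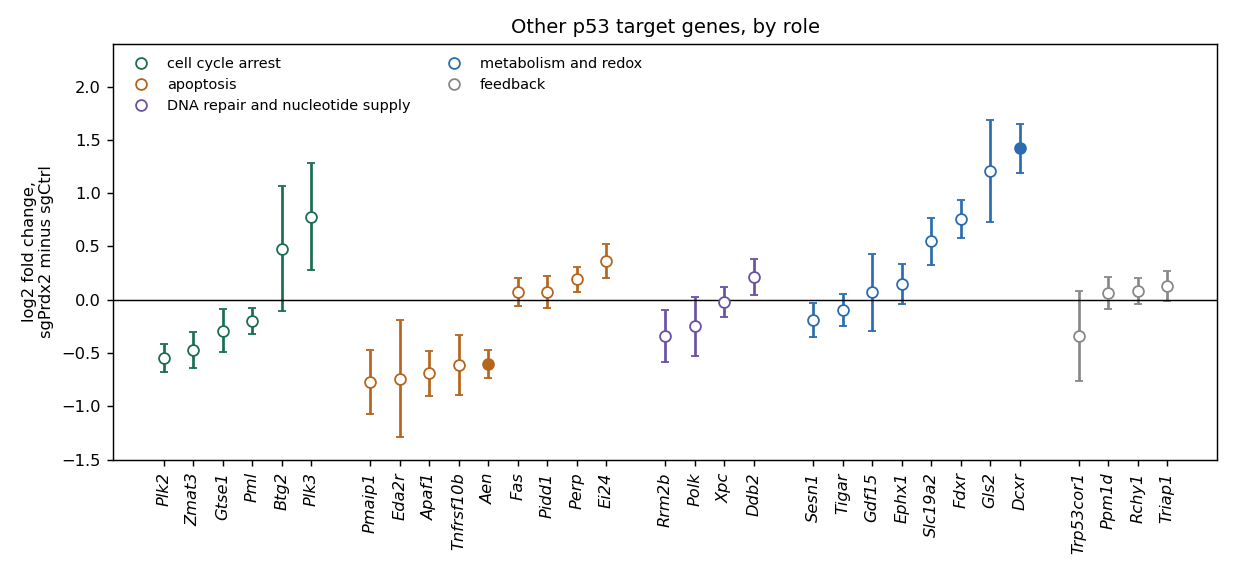
Log2 fold change (sgPrdx2 minus sgCtrl) ± SE of 31 further p53 target genes, grouped by role and ordered by value within a role; filled symbols have an adjusted p under 0.05. Aen (-0.60) is the filled symbol below 0 and Dcxr (1.42) the one above, and the metabolism and redox group lies mostly above 0.

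Genes upstream of p53 did not pass the test. Among all genes, 3.33% were called by edgeR and 13.4% by DESeq2. An unadjusted p under 0.05 was reached by 24.9% of all genes in edgeR, and 51.7% had log2 fold changes below 0. Of 18 genes of the p53 family and its regulators 16 were tested, since Trp63 and Trp73 had too few counts, and 0 were called, with 12 log2 fold changes below 0, a median of -0.16 and 1 with an unadjusted p under 0.05 in edgeR (DESeq2 called 0). The smallest p were those of Hipk2, a kinase of p53 (-0.60, adjusted p = 0.172), Ep300, an acetyltransferase of p53 (-0.49, adjusted p = 0.279), and Ppp1r13b, a p53 cofactor (-0.18, adjusted p = 0.376). Of 22 genes of DNA damage signalling, 21 were tested, 17 had log2 fold changes below 0 (median -0.16), 2 had an unadjusted p under 0.05 and 0 were called by edgeR or by DESeq2. Chek1, the checkpoint kinase downstream of ATR, was at -0.78 (adjusted p = 0.168), Topbp1, an activator of ATR, at -0.39 (adjusted p = 0.198) and Clspn, an adaptor of Chek1, at -0.80 (adjusted p = 0.258, edgeR for each).

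Among gene families related to the members, the CDK inhibitors other than Cdkn1a were not called (0 of 6 by edgeR or DESeq2, 1 with an unadjusted p under 0.05). The shares over all genes were 3.33% called by edgeR, 13.4% called by DESeq2 and 24.9% at an unadjusted p under 0.05 in edgeR. The smallest p were those of Cdkn2b (log2 fold change -0.89, adjusted p = 0.156), Cdkn2c (0.25, adjusted p = 0.314) and Cdkn1c (-0.53, adjusted p = 0.422, edgeR). Of the other sestrin and GADD45 genes, 0 of 4 were called by edgeR or DESeq2 and 0 had an unadjusted p under 0.05, with log2 fold changes from -0.19 (Sesn1) to 0.56 (Gadd45g). Of 13 further BCL2 family genes tested, 1 rose: Bik, a BH3-only gene, was at 6.72, 8.05 and 6.77 CPM in sgCtrl and 11.1, 12.5 and 13 CPM in sgPrdx2 livers (log2 fold change 0.76, adjusted p = 0.0430, edgeR). Bcl2, which restrains Bax, was at -0.64 (adjusted p = 0.0912) and Bad, a BH3-only gene, at 0.52 (adjusted p = 0.140).

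Sesn2 is also known as a gene induced by the stress factor ATF4, and a list of 11 ATF4 genes was set beside the members. Slc7a11, the cystine transporter, fell, at 9.46, 5.72 and 4.66 CPM in sgCtrl and 2.37, 2.77 and 2.83 CPM in sgPrdx2 livers (log2 fold change -1.31, adjusted p = 0.0491, edgeR). The other 10 did not pass, 10 of the 11 log2 fold changes were below 0 and their median was -0.50, with Atf3 at -0.87 (adjusted p = 0.0587), Psat1 at -1.64 (adjusted p = 0.0868) and Ddit4 at -0.50 (adjusted p = 0.163). Among all genes, 1.54% were called lower by edgeR and 51.7% had log2 fold changes below 0. Slc7a11 is also known as a gene that p53 represses.

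The level of p21 RNA is usually set against that of the cell cycle genes which p21 represses. Of 14 such genes, 0 were called by edgeR and 1 by DESeq2, against 3.33% and 13.4% of all genes. An unadjusted p under 0.05 in edgeR was reached by 3, against 24.9% of all genes. All 14 had log2 fold changes below 0 (median -0.31), the same sign as Cdkn1a, against 51.7% of all genes. Their relation to the level of Cdkn1a was not tested. The smallest p were those of Top2a, the topoisomerase of mitosis (-0.75, adjusted p = 0.104), Mki67, a marker of proliferating cells (-0.73, adjusted p = 0.138), and Bub1, a spindle checkpoint kinase (-0.89, adjusted p = 0.139, edgeR for each). Mki67 was at 16.8, 31.3 and 31.2 CPM in sgCtrl and at 13.5, 19.4 and 14.9 CPM in sgPrdx2 livers.

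Markers of liver cell types differed between the groups in the same comparison. For the counts below, 3.33% of all genes were called by edgeR and 13.4% by DESeq2. An unadjusted p under 0.05 was reached by 24.9% of all genes in edgeR, and 51.7% had log2 fold changes below 0. All 10 hepatocyte markers were higher in sgPrdx2 livers, 5 of them called, and their summed level was 79800 to 87100 CPM in sgCtrl and 138000 to 183000 CPM in sgPrdx2 livers. Most of that sum was Alb, with means of 60200 CPM in sgCtrl and 118000 CPM in sgPrdx2 livers. All 10 macrophage markers were lower (3560 to 4060 against 2340 to 3270 CPM, 1 called), as were 8 of 10 lymphocyte and leukocyte markers (274 to 313 against 146 to 172 CPM, 2 called) and 9 of 10 stellate cell and fibroblast markers (2300 to 2620 against 1660 to 1710 CPM, 0 called by edgeR, 4 by DESeq2, 7 with an unadjusted p under 0.05). Of cholangiocyte markers 6 of 7 (1680 to 1900 against 1260 to 1450 CPM, 0 called by edgeR, 1 by DESeq2, 3 with an unadjusted p under 0.05), of endothelial markers 7 of 8 (246 to 270 against 168 to 251 CPM, 1 called) and of neutrophil markers 4 of 5 tested (22.7 to 30.6 against 20.1 to 23.8 CPM, 0 called by edgeR or DESeq2, 2 with an unadjusted p under 0.05) were lower. No marker was at 0 in every liver. The part of these shifts in the lower level of Cdkn1a, Mdm2, Gadd45a and Trp53 was not tested.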

How the data were processed

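The authors deposited the counts of reads per gene for the 6 livers, as raw whole numbers; a further table holds the result of the authors' DESeq2 run (means, log2 fold changes, p-values) and was not used. The submitters' processing notes name HISAT2, HTSeq, DESeq2 and GRCm38. Annotation and strandedness are not given in the sources used here. Each library came from its own mouse by the labels, and the design text calls them biological replicates. No pair agreed within sampling noise (chi-square per degree of freedom of at least 34.9).

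Genes were tested together; the fit used edgeR 4.0.16 (R 4.3.3): filterByExpr (minimum count 10), TMM, and the quasi-likelihood test with Benjamini-Hochberg adjustment over all 17032 genes tested, called at adjusted p under 0.05. It gave a biological coefficient of variation of 0.213, and the standard errors and 95% intervals. For single values a two-sided exact permutation test was used, in which p cannot go below 0.1. Alternatives were RLE, upper-quartile and housekeeping scaling, DESeq2 1.42.0, a robust dispersion, other filters, an adjusted p under 0.1, and leaving out each liver. The removal of a trend on exon length (known for 97.1% of genes tested) and the search for full p53 elements were chosen after the data and sequences were seen.

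The members and gene lists were chosen with earlier results of these data known. Genes named are the members, Prdx2, and in each other list the called genes and up to 3 more by p. Btg2, Gls2, Gdf15, Sesn1, Gadd45g and Alb were chosen after their values were seen, and Gtse1 for its promoter element. Positions and exon lengths come from GENCODE for GRCm38 (91.5% of symbols matched), promoter windows from RefSeq GRCm38.p6, which held 9 members and not Trp53inp1. The p53 decamer and the full element of 20 bases are the published consensus of p53, searched on both strands; overlapping matches were kept.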

Additional observations from a re-analysis of the deposited data

How the results depend on the processing

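The 567 genes called in all became 989 with housekeeping scaling, 2048 with DESeq2, 1128 without a filter on low counts and 1767 at an adjusted p under 0.1, and 0 to 619 when 1 liver was left out (with 3114 to 4436 genes at an unadjusted p under 0.05 in edgeR). Of the 10 members 1 was called under each alternative with all livers except housekeeping scaling, where 2 were called, and 0 to 1 when a liver was left out. Of the 31 further p53 targets 2 were called, against 1 with RLE, 1 with the robust dispersion, 6 with DESeq2, 5 at an adjusted p under 0.1 and 0 to 2 without a liver. Of the 14 cell cycle genes, DESeq2 called 1. The median log2 fold change of the members, -0.23, was -0.60 with housekeeping scaling and -0.32 to -0.20 without a liver. Bax turned from 0.05 to -0.35 with housekeeping scaling, -0.11 without the length trend and -0.18 without sgPrdx2 liver 3.2 (-0.18 to 0.17 without each liver). Bbc3 turned from 0.02 to -0.33 with housekeeping scaling, -0.08 without the length trend, -0.32 without sgCtrl liver 5.1 and -0.09 without sgPrdx2 liver 1.1 (-0.32 to 0.27 without each liver). The causes of these changes were not tested. In the fits that leave one out, fewer livers and the liver removed cannot be told apart. The other members kept their sign under every alternative. No paired analysis was possible because the groups share no mouse numbers.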
